A study of Mus musculus with 4 samples.

Results

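The genes described here encode the enzymes that carry glucose to pyruvate and lactate, the mitochondrial glycerophosphate shuttle, the pyruvate dehydrogenase step and the tricarboxylic acid (TCA) cycle. The list named 41 gene symbols from these pathways and was chosen with earlier results of these data known. Of the 41, 39 had a probe set annotated to that gene alone, out of 18194 genes on the array. Gpi1 and Eno1 were not analysed here. Where a gene had several such probe sets, the one brightest on average in the deposited columns was used. Gapdh had single-gene probe sets only among the array's controls, so the control probe set for its 3' end stood for it. The 39 genes comprised 9 of hexokinase and upper glycolysis, 5 of lower glycolysis, 2 lactate dehydrogenase genes, 2 shuttle genes, 5 of the pyruvate dehydrogenase step and 16 of the TCA cycle.

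Glycolysis splits glucose to pyruvate in the cytosol. Pyruvate then either becomes lactate, which regenerates NAD+, or enters mitochondria as acetyl-CoA for the TCA cycle, and pyruvate dehydrogenase kinases close the second route by phosphorylating the complex. The glycerophosphate shuttle passes electrons from cytosolic NADH to the respiratory chain. Activated T cells are known for strong glycolysis, whereas regulatory T cells are known for relying more on mitochondrial oxidation.

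RNA from 4 sorted populations of CD4+ CD8- thymocytes was hybridised to Affymetrix mouse arrays, with 1 array per population, from female mice aged 6 to 8 weeks on a C57BL/6 background backcrossed from 129/Sv. Foxp3-null cells were the GFP+ cells of Foxp3(gfpko/wt) mice, which carry a GFP-tagged knockout allele beside a wild-type one and had 2 backcross generations. Foxp3 is X-linked, so in these females the cells with the wild-type allele active can still become regulatory T cells. Foxp3-fusion cells were the GFP+ cells of Foxp3(gfp/gfp) mice, in which both alleles make Foxp3 fused to GFP. GFP- CD25+ and GFP- CD25- cells came from Foxp3(gfp/gfp) mice as well, and these 3 populations had 4 to 6 backcross generations. The labels give no number of mice or pooling, and a CD25 gate is stated only for GFP- cells. The description field of the Foxp3-null sample repeats that of the gfp/gfp mice, so its identity rests on its title and strain.

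No comparison had replicates, so no value below carries an error or a p-value, and every difference is between 1 array and another. Signals are on the log2 scale after quantile normalization. A floor of 5.10 log2, set from genes of other tissues, marks the level below which signals were not told from background. Differences are counted at 2-fold or more. The deposited scale was kept beside the normalized one because deposited 90th percentiles ran from 7.54 to 8.17 and the median difference over all genes changed with the scale. For Foxp3-null over Foxp3-fusion cells that median was 0.15 log2 on the normalized scale and -0.35 as deposited. For Foxp3-fusion over GFP- CD25+ cells it was -0.09 and 0.30.

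Foxp3 read 7.27 log2 in Foxp3-null cells, 8.83 in Foxp3-fusion cells, 2.88 in GFP- CD25+ cells and 2.76 in GFP- CD25- cells. GFP, on which the cells were sorted, is made from the Foxp3 locus in both kinds of mice. All 7 measured CD4 T cell markers were above the floor on each array, and the 4 erythroid and 2 CD8 markers measured were under it on each. Of 8 dendritic cell and macrophage markers, 3 were above the floor in Foxp3-null cells, 2 in Foxp3-fusion cells, 1 in GFP- CD25+ cells and 1 in GFP- CD25- cells. The summed linear signals of this list were 234, 151, 180 and 172 in that order. In B cell markers the counts were 1, 0, 0 and 0 of 5, in thymic epithelial markers 1 of 6 on each array, and their part in the results was not tested.

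The arrays differed in how much signal was kept towards the 5' ends of transcripts, which bears on a member directly. The 3' control probe set of Gapdh exceeded the 5' one by 4.92 log2 in Foxp3-null cells, 4.62 in Foxp3-fusion cells, 6.66 in GFP- CD25+ cells and 6.45 in GFP- CD25- cells. For Actb the same gaps were 6.99, 5.22, 9.27 and 8.39 in that order. Both GFP+ arrays thus kept more signal away from the 3' end than both GFP- arrays. For the probe sets of members other than Gapdh, positions within the transcript were not used here.

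Signals of the members ran from well under the floor to 12.25 log2. Mdh1 and Mdh2, the cytosolic and mitochondrial malate dehydrogenases, read 11.99 to 12.25 log2 on all 4 arrays. In all, 28 of the 39 members were above the floor on all 4 arrays and 34 on at least 1. Aldoc, Pdk2 and Pdk3 stayed well under the floor, at 2.62 to 4.06 log2. Hk2, the inducible hexokinase, read 3.73, 4.68, 4.35 and 3.13 log2, and the cytosolic isocitrate dehydrogenase gene Idh1 read 4.79 to 4.96. For these 5 genes no difference is given. Of the 34 members above the floor on some array, 15 (44.1%) were at least 2-fold apart in 1 or more of the 6 pairs of arrays, beside 40.5% of all 7112 such genes. As deposited these were 18 members (52.9%), beside 44.1% of all genes. On the normalized scale 19 members were not counted at 2-fold in any pair, and for Pfkl, Gpd1l and Idh2 some of those differences are lower bounds.

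**Figure D1:**
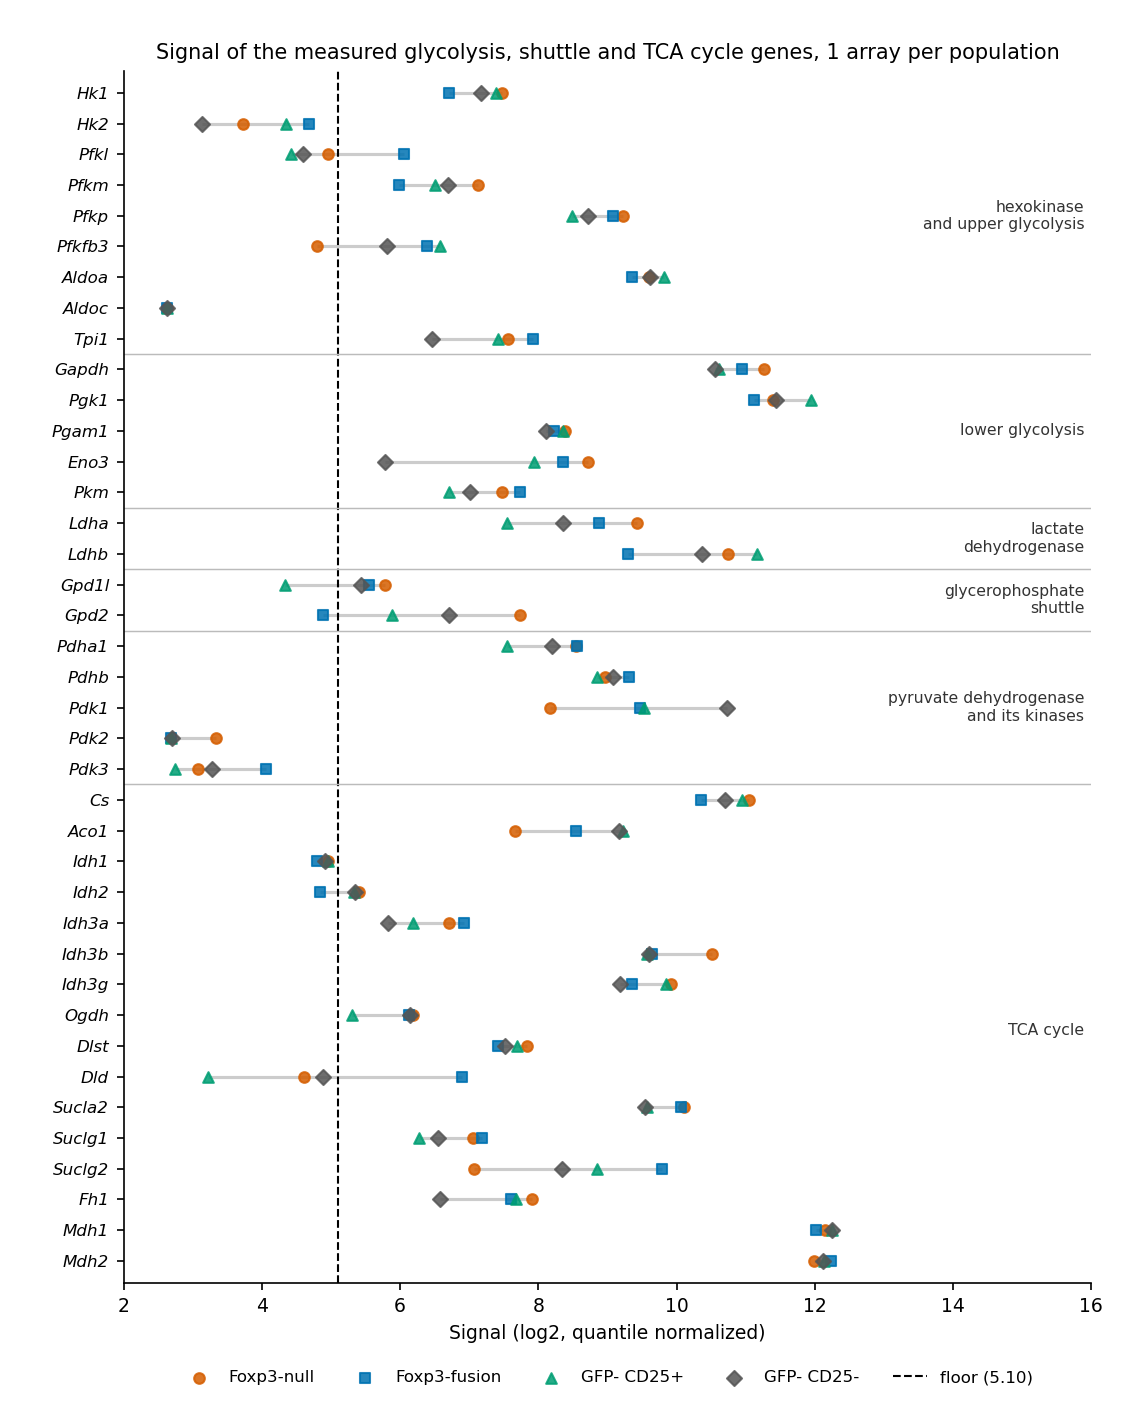
Log2 signal (x axis, quantile normalized) of each measured member (rows, grouped by pathway) on the 4 arrays, with 1 point per array and the floor of 5.10 log2 as a dashed line. Eno3, Gpd2, Pdk1 and Suclg2 show wide gaps between arrays, whereas Mdh1, Mdh2 and Pgam1 lie close together.

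Among upper glycolysis genes, the genes of the first committed step differed in pattern. Pfkm, the muscle-type phosphofructokinase subunit, read 7.13 log2 in Foxp3-null cells, 5.98 in Foxp3-fusion cells, 6.50 in GFP- CD25+ cells and 6.69 in GFP- CD25- cells. Pfkl, the liver-type subunit, was above the floor only in Foxp3-fusion cells, at 6.05 log2, against 4.96, 4.42 and 4.60 elsewhere. Pfkp, the platelet-type subunit, read 9.22, 9.08, 8.49 and 8.72 log2 in the same order of populations and stayed within 0.73 over the 4 arrays. Pfkm and Pfkl thus had opposite extremes on the Foxp3-fusion array. Pfkm was 2.21-fold higher in Foxp3-null than in Foxp3-fusion cells, but under 2-fold as deposited. Pfkfb3, which makes the activator of phosphofructokinase, read 4.80 log2 in Foxp3-null cells, 6.39 in Foxp3-fusion cells, 6.57 in GFP- CD25+ cells and 5.81 in GFP- CD25- cells. Foxp3-null cells alone were under the floor, at least 2.44-fold below Foxp3-fusion cells and at least 2.78-fold below GFP- CD25+ cells.

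Hk1, the constitutive hexokinase, read 7.48, 6.71, 7.38 and 7.17 log2 from Foxp3-null to GFP- CD25- cells. Aldoa, the main aldolase here, read 9.60, 9.35, 9.82 and 9.61 log2. Neither reached 2-fold between any arrays on the probe set used, but for Foxp3-null over GFP- CD25+ cells 2 other Aldoa probe sets gave 1.01 and 1.24 log2. Tpi1, which interconverts the triose phosphates, read 7.56 log2 in Foxp3-null cells, 7.92 in Foxp3-fusion cells, 7.42 in GFP- CD25+ cells and 6.46 in GFP- CD25- cells. The GFP- CD25- array was lowest, by 2.13-fold against Foxp3-null cells and 2.75-fold against Foxp3-fusion cells. The other Tpi1 probe sets above the floor gave 0.43 and at least 0.41 log2 for Foxp3-null over GFP- CD25- cells, and 1.97 and at least 1.16 log2 for Foxp3-fusion over GFP- CD25- cells.

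In lower glycolysis, Eno3 stood apart. Eno3 encodes the enolase best known from muscle. Its log2 signal was 8.72 in Foxp3-null cells, 8.36 in Foxp3-fusion cells, 7.93 in GFP- CD25+ cells and 5.78 in GFP- CD25- cells. It was thus low in GFP- CD25- cells and high in the other 3 populations. Against GFP- CD25- cells it was 7.67-fold higher in Foxp3-null cells, 5.98-fold in Foxp3-fusion cells and 4.46-fold in GFP- CD25+ cells, and 6.07-fold, 7.39-fold and 3.79-fold as deposited. Eno3 has a single probe set on the array, so no second one could be set beside it.

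The other lower glycolysis genes differed little. Pgk1, the phosphoglycerate kinase, read 11.39, 11.12, 11.94 and 11.44 log2 and Pgam1, the mutase after it, 8.38, 8.22, 8.35 and 8.11. Pkm, a pyruvate kinase gene whose splice forms were not told apart here, read 7.48 log2 in Foxp3-null cells, 7.74 in Foxp3-fusion cells, 6.71 in GFP- CD25+ cells and 7.01 in GFP- CD25- cells. The gap of Foxp3-fusion over GFP- CD25+ cells was 2.04-fold, and it was under 2-fold in the other pairs.

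Gapdh, the dehydrogenase at the start of lower glycolysis, read 11.26 log2 in Foxp3-null cells, 10.94 in Foxp3-fusion cells, 10.62 in GFP- CD25+ cells and 10.55 in GFP- CD25- cells at its 3' end. Its middle probe set read 8.61, 8.78, 6.16 and 6.80 log2. For Foxp3-fusion over GFP- CD25+ cells the difference was 0.33 log2 at the 3' end and 2.62 in the middle. The size of a Gapdh difference therefore depended on the position measured. Mdh1 gave a similar contrast between its probe sets, with -0.23 log2 on the one used and 2.15 on another in the same comparison, whose positions were not used here.

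**Figure D2:**
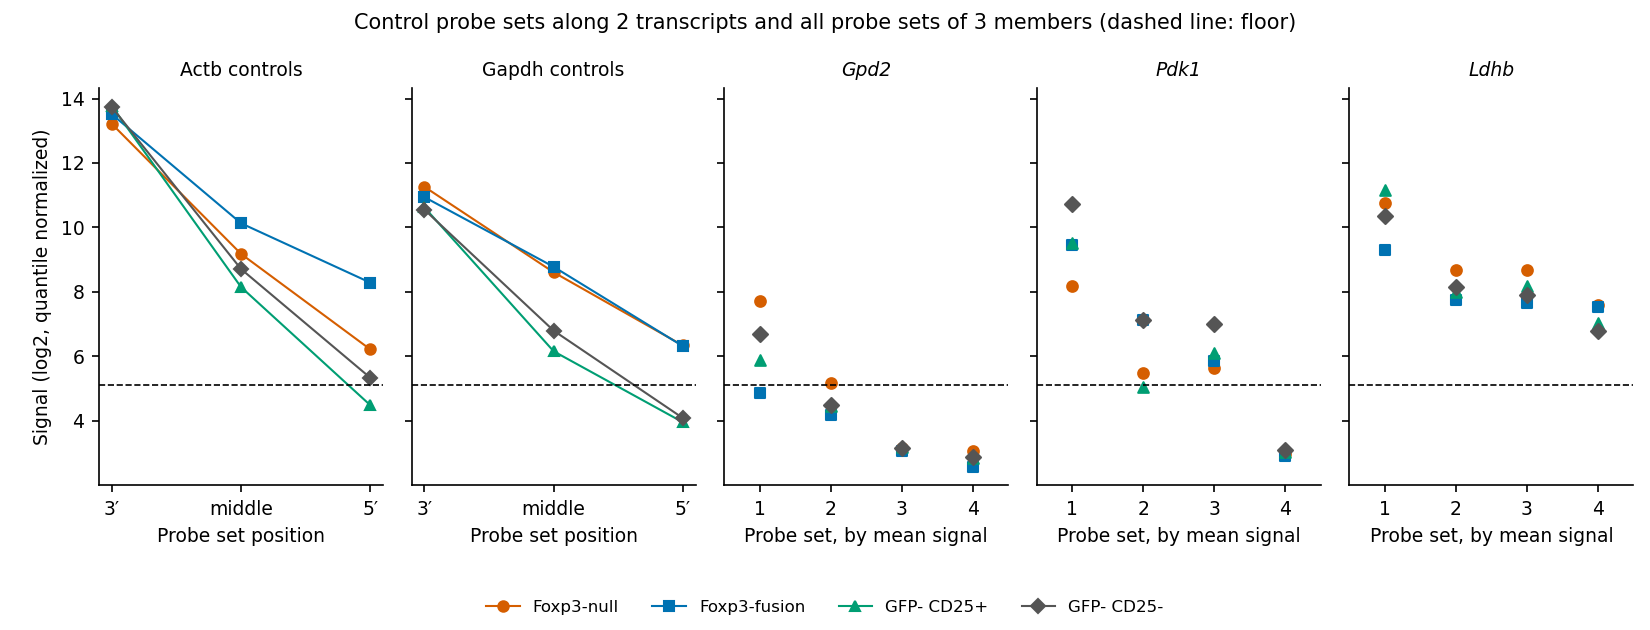
Log2 signal (y axis, quantile normalized) of control probe sets at the 3' end, middle and 5' end of Actb and Gapdh, and of every probe set of Gpd2, Pdk1 and Ldhb ranked by mean signal, with 1 point per array and the floor dashed. The 4 arrays lie close together at the 3' end of Gapdh (10.55 to 11.26) and apart in its middle (6.16 to 8.78).

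The lactate dehydrogenase genes ran in different ways across the arrays. Ldha encodes the subunit that favours making lactate. It read 9.43 log2 in Foxp3-null cells, 8.87 in Foxp3-fusion cells, 7.54 in GFP- CD25+ cells and 8.35 in GFP- CD25- cells. Both GFP+ populations were above both GFP- populations. Foxp3-null cells exceeded GFP- CD25+ cells by 3.72-fold and GFP- CD25- cells by 2.11-fold, and Foxp3-fusion cells exceeded GFP- CD25+ cells by 2.52-fold. As deposited, the difference between Foxp3-null and GFP- CD25- cells was 1.69-fold. Ldha has 1 probe set on the array. The middle Gapdh control, at 8.61, 8.78, 6.16 and 6.80 log2 in the same order, also set both GFP+ arrays above both GFP- arrays. The part of such signal loss in the Ldha differences was not tested.

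Ldhb, the subunit of the heart-type enzyme, read 10.75 log2 in Foxp3-null cells, 9.30 in Foxp3-fusion cells, 11.16 in GFP- CD25+ cells and 10.37 in GFP- CD25- cells. Foxp3-fusion cells were lowest, at 3.65-fold lower than GFP- CD25+ cells and 2.10-fold lower than GFP- CD25- cells, or 2.72-fold and 1.76-fold as deposited. Foxp3-null cells were 2.74-fold higher than Foxp3-fusion cells, or 1.80-fold as deposited. The other 3 Ldhb probe sets gave 0.93, 1.05 and 0.08 log2 for Foxp3-null over Foxp3-fusion cells. For Foxp3-fusion over GFP- CD25- cells they gave -0.42, -0.25 and 0.71 log2, so 1 of the 3 went the other way. For Foxp3-fusion over GFP- CD25+ cells they gave -0.25, -0.54 and 0.47 log2. None of the 3 reached 2-fold there, and 1 again went the other way.

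Among the glycerophosphate shuttle genes, Gpd2 alone held one of the widest contrasts between the GFP+ populations. Gpd2, the mitochondrial glycerol phosphate dehydrogenase, read 7.73 log2 in Foxp3-null cells, 4.88 in Foxp3-fusion cells, 5.88 in GFP- CD25+ cells and 6.71 in GFP- CD25- cells. It was highest in Foxp3-null cells and under the floor in Foxp3-fusion cells. Foxp3-null cells were at least 6.21-fold higher than Foxp3-fusion cells, 3.61-fold higher than GFP- CD25+ cells and 2.04-fold higher than GFP- CD25- cells. Foxp3-fusion cells were at least 3.05-fold lower than GFP- CD25- cells. As deposited, Foxp3-null cells were at least 5.43-fold above Foxp3-fusion cells and 1.58-fold above GFP- CD25- cells. The second brightest Gpd2 probe set was above the floor only in Foxp3-null cells, at 5.19 log2, against 4.17, 4.47 and 4.50 in Foxp3-fusion, GFP- CD25+ and GFP- CD25- cells. Gpd1l, a gene related to that of the cytosolic shuttle enzyme, read 5.78, 5.55, 4.34 and 5.44 log2. It was under the floor in GFP- CD25+ cells, and Foxp3-null cells were at least 1.61-fold above them, so whether that pair was 2-fold apart was not measured. Between the GFP+ populations Gpd1l was 1.18-fold apart. The gene of the cytosolic enzyme itself, Gpd1, was not a member and read 2.70 to 2.78 log2, under the floor on all 4 arrays.

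At the pyruvate dehydrogenase step, Pdk1 was lower than in GFP- CD25- cells in each of the other populations. Pdk1 is a kinase that inactivates the complex. It read 8.17 log2 in Foxp3-null cells, 9.47 in Foxp3-fusion cells, 9.53 in GFP- CD25+ cells and 10.73 in GFP- CD25- cells. The differences from GFP- CD25- cells were 5.87-fold, 2.40-fold and 2.28-fold in that order, and 7.29-fold, 1.98-fold and 2.64-fold as deposited. Foxp3-null cells were also 2.45-fold lower than Foxp3-fusion cells and 2.57-fold lower than GFP- CD25+ cells.

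Not all Pdk1 probe sets ranked the arrays alike. The second read 5.48 log2 in Foxp3-null cells, 7.13 in Foxp3-fusion cells, 5.04 in GFP- CD25+ cells and 7.13 in GFP- CD25- cells. The third read 5.64, 5.87, 6.12 and 7.02 log2. All 3 bright probe sets placed Foxp3-null cells below GFP- CD25- cells, by 2.55, 1.65 and 1.38 log2. For Foxp3-fusion cells they differed, since the second gave -0.01 log2 against GFP- CD25- cells. For Foxp3-null over GFP- CD25+ cells the second gave at least 0.38 log2, the opposite direction to the -1.36 of the probe set used, and the third -0.48. Pdha1 and Pdhb encode subunits of the complex itself. Pdha1 read 8.55, 8.56, 7.55 and 8.20 log2 and Foxp3-fusion cells exceeded GFP- CD25+ cells by 2.00-fold. Its other probe set gave -0.21 log2 there. Pdhb stayed within 0.47 log2 over the 4 arrays.

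The stretches of genome before the start sites of the 5 members with the widest range over the arrays, among those above the floor on 3 or more, are given here. They were taken from RefSeq (GRCm38.p6), as the 250 bases before the first listed start, and all 5 symbols were found. Capitals mark ACGTG or GCGTG on either strand, the core of the element bound by hypoxia-inducible factors, which are known regulators of Ldha and Pdk1. The ACGTG core overlaps the E-box CACGTG, which it lies within. The windows were chr11:70656926-70657175 for Eno3, chr7:46845554-46845803 for Ldha, chr2:57237428-57237677 for Gpd2 and chr2:71872974-71873223 for Pdk1, all on the + strand, and chr6:95718847-95719096 on the - strand for Suclg2.
Eno3: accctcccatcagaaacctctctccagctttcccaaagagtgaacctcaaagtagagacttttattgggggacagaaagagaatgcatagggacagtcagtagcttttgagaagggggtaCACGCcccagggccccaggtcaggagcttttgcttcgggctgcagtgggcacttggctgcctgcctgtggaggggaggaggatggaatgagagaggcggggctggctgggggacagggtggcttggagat
Ldha: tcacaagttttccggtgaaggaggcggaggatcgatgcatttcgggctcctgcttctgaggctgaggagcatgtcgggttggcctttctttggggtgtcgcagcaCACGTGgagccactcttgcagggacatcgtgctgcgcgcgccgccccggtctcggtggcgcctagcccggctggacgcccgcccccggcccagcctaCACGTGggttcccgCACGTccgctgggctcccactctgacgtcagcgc
Gpd2: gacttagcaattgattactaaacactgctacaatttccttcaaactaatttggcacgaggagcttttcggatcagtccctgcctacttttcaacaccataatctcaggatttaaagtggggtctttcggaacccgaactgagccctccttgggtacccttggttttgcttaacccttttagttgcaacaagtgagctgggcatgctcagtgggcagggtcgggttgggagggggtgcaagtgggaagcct
Pdk1: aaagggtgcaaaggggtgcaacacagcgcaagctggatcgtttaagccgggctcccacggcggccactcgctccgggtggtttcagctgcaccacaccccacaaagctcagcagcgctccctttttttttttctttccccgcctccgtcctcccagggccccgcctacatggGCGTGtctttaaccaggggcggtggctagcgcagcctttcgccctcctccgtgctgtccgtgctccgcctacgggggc
Suclg2: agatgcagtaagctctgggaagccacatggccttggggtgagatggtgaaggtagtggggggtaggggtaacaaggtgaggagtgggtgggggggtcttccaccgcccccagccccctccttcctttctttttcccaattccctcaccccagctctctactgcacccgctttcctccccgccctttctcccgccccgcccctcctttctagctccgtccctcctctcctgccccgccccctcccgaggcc

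The core was found in 3 of these 5 windows. In Ldha its first base lay at -145, -144, -48, -47 and -34 from the start, where each neighbouring pair is 1 E-box read on both strands. In Pdk1 it lay at -78 and in Eno3 at -130. The Gpd2 and Suclg2 windows held none. Over all listed symbols with a window, which include Gpi1 and Eno1 but not Idh3a, 26 of 40 (65%) held it. Over 27025 genes of all kinds, not only those on the array, 38.6% did. The sets are unlike, so the shares do not show an excess of the core in the members. These matches describe letters in a window, and binding was not measured.

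Among TCA cycle genes, Suclg2 gave the widest contrast between the GFP+ populations, and it ran opposite to Gpd2. Suclg2 is a subunit of the succinyl-CoA ligase that forms GTP. It read 7.07 log2 in Foxp3-null cells, 9.79 in Foxp3-fusion cells, 8.85 in GFP- CD25+ cells and 8.34 in GFP- CD25- cells. Foxp3-null cells were lowest and Foxp3-fusion cells highest. Foxp3-null cells were 6.58-fold lower than Foxp3-fusion cells, 3.43-fold lower than GFP- CD25+ cells and 2.41-fold lower than GFP- CD25- cells, and Foxp3-fusion cells were 2.73-fold higher than GFP- CD25- cells. As deposited, Foxp3-null cells were 10.06-fold lower than Foxp3-fusion cells. The other Suclg2 probe set was above the floor only in Foxp3-fusion cells, at 5.92 log2 against 4.46, 4.38 and 4.46 in Foxp3-null, GFP- CD25+ and GFP- CD25- cells.

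The partner genes of Suclg2 differed less. Sucla2, the subunit of the ATP-forming ligase, read 10.10, 10.06, 9.57 and 9.54 log2, and Suclg1, the subunit common to both ligases, read 7.06, 7.19, 6.27 and 6.55. Neither reached 2-fold between any arrays on the normalized scale.

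Fh1, the fumarase, followed the pattern of Eno3 on a smaller scale. It read 7.91 log2 in Foxp3-null cells, 7.60 in Foxp3-fusion cells, 7.67 in GFP- CD25+ cells and 6.58 in GFP- CD25- cells. Over GFP- CD25- cells it was 2.52-fold, 2.03-fold and 2.13-fold higher in that order, and 1.95-fold, 2.44-fold and 1.77-fold as deposited. Like Eno3 it has 1 probe set. Dld, the dihydrolipoamide dehydrogenase that pyruvate and oxoglutarate dehydrogenase both use, read 4.61 log2 in Foxp3-null cells, 6.89 in Foxp3-fusion cells, 3.22 in GFP- CD25+ cells and 4.88 in GFP- CD25- cells. Only Foxp3-fusion cells were above the floor, by at least 3.45-fold against each of the others. The other Dld probe set was under the floor on all 4 arrays, at 2.26 to 2.27 log2. Without Afp among the genes that set it, the floor was 4.45 log2. Foxp3-null and GFP- CD25- cells were above that level as well.

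Aco1, the cytosolic aconitase that also acts as an iron regulatory protein, read 7.66 log2 in Foxp3-null cells, 8.54 in Foxp3-fusion cells, 9.22 in GFP- CD25+ cells and 9.16 in GFP- CD25- cells. It was lowest in Foxp3-null cells, by 2.96-fold against GFP- CD25+ cells and 2.83-fold against GFP- CD25- cells. Its other probe sets were under the floor on all 4 arrays. Isocitrate dehydrogenase genes differed modestly. Idh3a, the catalytic subunit of the NAD-dependent enzyme, read 6.70, 6.92, 6.19 and 5.83 log2 and Foxp3-fusion cells exceeded GFP- CD25- cells by 2.14-fold. The other subunits Idh3b (10.51, 9.64, 9.57 and 9.60) and Idh3g (9.92, 9.35, 9.85 and 9.18) stayed under 2-fold on the probe sets used. A second Idh3g probe set gave 1.26 log2 for Foxp3-null and 1.67 for Foxp3-fusion over GFP- CD25- cells, and 1.19 for Foxp3-fusion over GFP- CD25+ cells. The mitochondrial NADP-dependent Idh2 read 5.40, 4.84, 5.33 and 5.34 log2, under the floor in Foxp3-fusion cells.

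Citrate synthase (Cs), the entry enzyme of the cycle, read 11.05, 10.36, 10.95 and 10.70 log2. Ogdh, a component of oxoglutarate dehydrogenase, read 6.19, 6.13, 5.30 and 6.14 log2, and its partner Dlst 7.84, 7.42, 7.69 and 7.52. None of the 3 reached 2-fold on the normalized scale. A second Cs probe set read 7.96, 7.77, 6.59 and 7.80 log2, with GFP- CD25+ cells lower by 1.21 log2 than GFP- CD25- cells, where the probe set used gave 0.25.

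**Figure D3:**
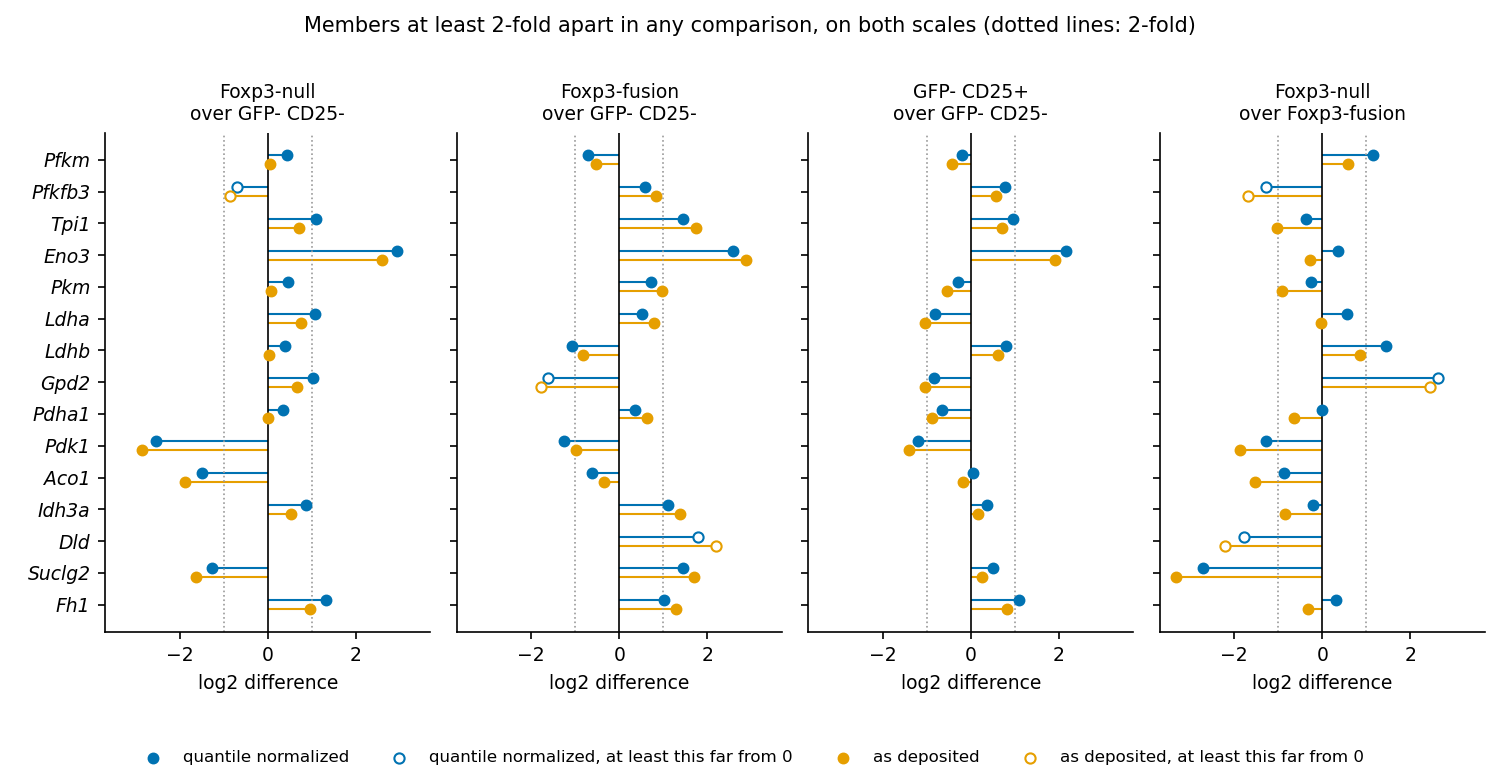
Log2 difference (x axis) of the 15 members at least 2-fold apart in any pair of arrays, in 4 comparisons, on the quantile normalized scale (blue) and as deposited (orange), with open points for lower bounds and dotted lines at 2-fold. Eno3 lies to the right in each comparison with GFP- CD25- cells and Pdk1 to the left, while Gpd2 and Suclg2 change side between Foxp3-null and Foxp3-fusion cells.

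By comparison, Foxp3-null cells were set against GFP- CD25- cells to describe cells that use the Foxp3 locus without its protein. Of 32 measured members, 5 were at least 2-fold higher (Eno3, Fh1, Tpi1, Ldha and Gpd2), where 10.4% of all genes were. At least 2-fold lower were 3 (Pdk1, Aco1 and Suclg2), against 7.71% of all genes. The members' shares were 15.6% and 9.38%. The members' median difference was 0.35 log2, beside 0.22 for all genes. As deposited, 1 member was at least 2-fold higher (Eno3) and 3 lower, beside 5.06% and 12.7% of all genes. The 3 lower members were the same genes on both scales, and the medians were 0.04 log2 for the members and -0.03 for all genes. In each comparison of Foxp3-null cells with GFP- CD25- or GFP- CD25+ cells, genotype, backcross generation and array cannot be told apart.

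Foxp3-fusion cells against GFP- CD25- cells compare regulatory T cells with other CD4 thymocytes from mice of the same kind. The 2 arrays differed in signal away from the 3' end. The middle controls were higher in Foxp3-fusion cells by 1.98 log2 for Gapdh and 1.42 for Actb. At the 3' ends the differences were 0.40 and -0.22 log2. The part of this in the counts that follow was not tested. At least 2-fold higher were 6 of 34 measured members (Eno3, Dld, Tpi1, Suclg2, Idh3a and Fh1), beside 10.5% of all genes. At least 2-fold lower were 3 (Gpd2, Pdk1 and Ldhb), beside 5.84%. The members' shares were 17.6% and 8.82%, and their median was 0.15 log2, beside -0.03 for all genes. As deposited 7 were higher and 1 lower, beside 15.7% and 3.77% of all genes. All 6 higher members stayed past 2-fold there, and of the lower ones Gpd2 did. Within the TCA cycle list, 4 of 15 measured genes (26.7%) passed 2-fold upwards and 0 downwards, beside the 10.5% and 5.84% of all genes. As deposited these were again 4 and 0, beside 15.7% and 3.77%. Other comparisons differed on the normalized scale. For Foxp3-null over GFP- CD25- cells, 1 of 14 was higher, beside 10.4% of all genes. The 2 lower ones, beside 7.71%, were Suclg2 and Aco1, whose enzyme is cytosolic. As deposited 0 were higher and 2 lower, beside 5.06% and 12.7%. For Foxp3-fusion over GFP- CD25+ cells, 1 of 15 was higher and 0 were lower, beside 11.8% and 8.4%. As deposited 5 were higher and 0 lower, beside 22.8% and 3.04%.

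GFP- CD25+ cells against GFP- CD25- cells compare populations that both lack GFP. At least 2-fold higher were 2 of 32 members (Eno3 and Fh1), beside 4.29% of all genes, and 1 was lower (Pdk1), beside 4.6%. The median was 0.05 log2, beside 0.12 for all genes. As deposited 1 was higher and 3 were lower, beside 2.75% and 7.74%. Ldha (2.07-fold) and Gpd2 (2.05-fold) joined Pdk1 there, and Fh1 was at 1.77-fold.

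The direct comparison of Foxp3-null with Foxp3-fusion cells bears on the absence of Foxp3 protein, although genotype, backcross generation and array cannot be told apart in it. Of 34 members, 3 exceeded Foxp3-fusion cells by 2-fold or more (Gpd2, Ldhb and Pfkm), beside 8.31% of all genes. At least 2-fold lower were 4 (Suclg2, Dld, Pfkfb3 and Pdk1), beside 9.16%. The members' shares, 8.82% and 11.8%, were close to those of all genes. The median was 0.14 log2, beside 0.15 for all genes. As deposited the split was 1 higher and 7 lower, beside 2.51% and 21.2%, and the median was -0.46, beside -0.35 for all genes. Relative to the median of all genes on each scale, Gpd2 and Ldhb were at least 2-fold higher on both, and Suclg2, Pdk1, Pfkfb3, Dld and Aco1 at least 2-fold lower on both.

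Against GFP- CD25+ cells, Foxp3-null cells had 2 of 32 members at least 2-fold higher (Ldha and Gpd2), beside 8.6% of all genes, and 4 lower (Suclg2, Aco1, Pfkfb3 and Pdk1), beside 7.66%. All of these were past 2-fold as deposited as well, beside 6.44% and 8.86% of all genes. Foxp3-fusion cells had 4 of 34 higher (Dld, Ldha, Pkm and Pdha1), beside 11.8% of all genes, and 1 lower (Ldhb), beside 8.4%. As deposited they had 11 higher and 1 lower, beside 22.8% and 3.04%. Pfkl, Pfkp, Tpi1, Idh3a, Ogdh, Suclg1 and Suclg2 passed 2-fold there but not on the normalized scale. The comparisons share arrays, so their counts are not independent of each other. In such bulk samples fewer cells of a kind and less RNA per cell cannot be told apart.

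**Figure D4:**
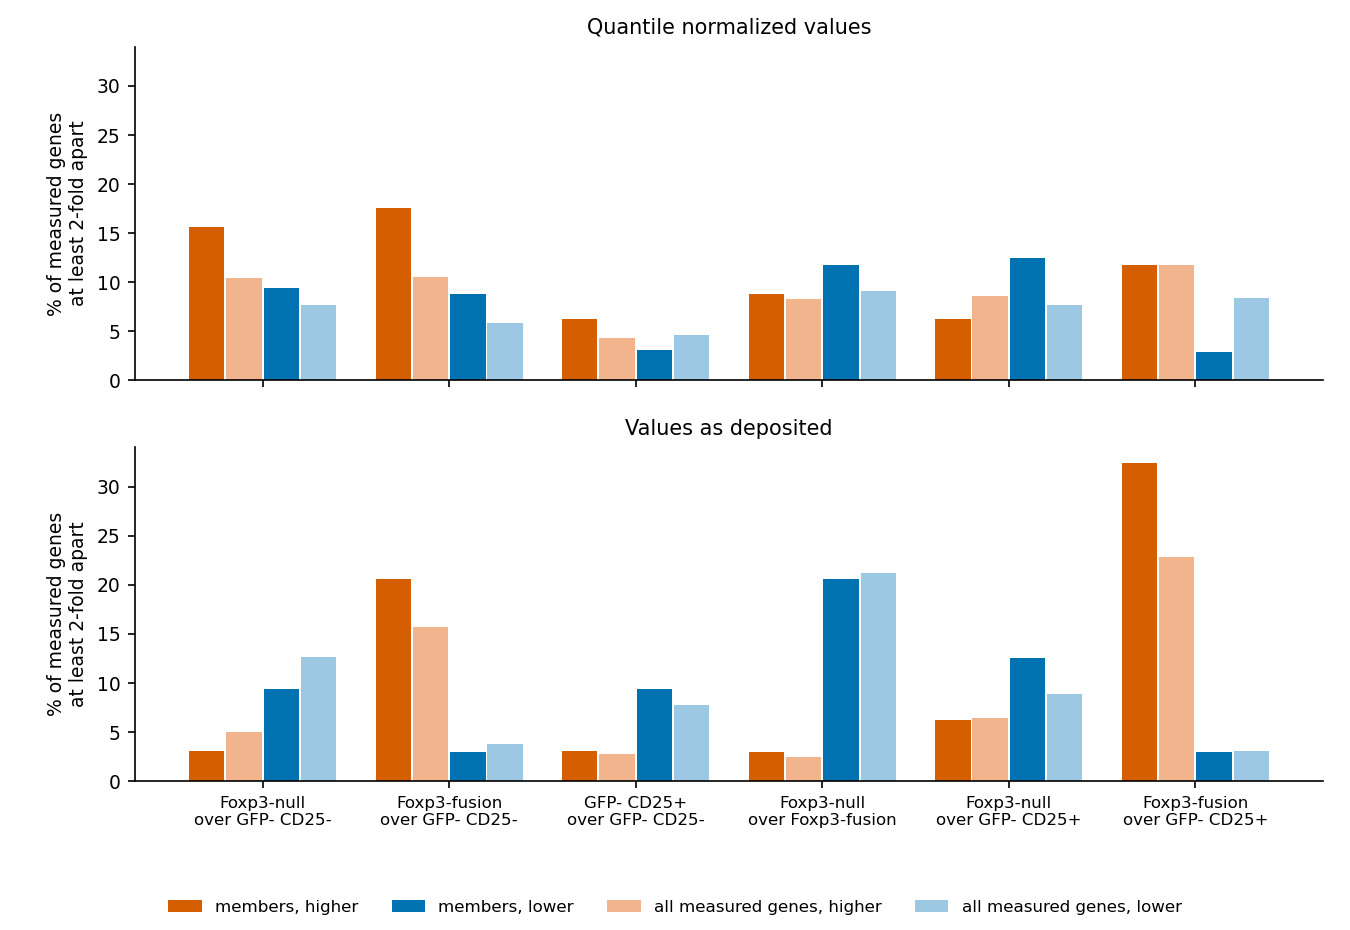
Percentage of measured genes at least 2-fold higher or lower (y axis) in each of the 6 pairs of arrays, for the members beside all measured genes, with quantile normalized values above and deposited values below. On the normalized scale the members' share is furthest above that of all genes for members higher in Foxp3-fusion over GFP- CD25- cells (17.6% beside 10.5%) and furthest below it for members lower in Foxp3-fusion over GFP- CD25+ cells (2.94% beside 8.4%), and as deposited the tallest member bar is 32.4% beside 22.8%, for members higher in Foxp3-fusion over GFP- CD25+ cells.

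Neighbouring genes of the pathway came from separate lists of 67 genes, of which 60 were measured and 33 were above the floor on at least 1 array. At least 2-fold apart in any pair were 15 of these 33 (45.5%), beside the 40.5% of all genes. Among glucose and lactate transporters, 2 of the 3 above the floor were, out of 7 measured. Slc16a1, a carrier of lactate and pyruvate, read 5.23 log2 in Foxp3-null cells, 7.26 in Foxp3-fusion cells, 6.00 in GFP- CD25+ cells and 5.73 in GFP- CD25- cells. Foxp3-fusion cells were highest, and Foxp3-null cells were 4.08-fold lower than they were. Slc2a3, a glucose transporter, read 7.09, 8.52, 6.98 and 8.06 log2 and was 2.70-fold lower in Foxp3-null than in Foxp3-fusion cells. Slc2a1, the other glucose transporter measured above the floor, read 9.15, 9.78, 10.02 and 9.92 log2 and stayed under 2-fold, but was 2.34-fold lower in Foxp3-null than in Foxp3-fusion cells as deposited.

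Of 18 other TCA cycle and pyruvate genes, 10 were above the floor and 3 of these (30%) were at least 2-fold apart in some pair, beside 40.5% of all genes. Got2, the mitochondrial aspartate aminotransferase, read 9.49 log2 in Foxp3-null cells, 9.30 in Foxp3-fusion cells, 8.08 in GFP- CD25+ cells and 7.73 in GFP- CD25- cells. Both GFP+ populations were higher than GFP- CD25- cells, by 3.37-fold and 2.97-fold. Glud1, the glutamate dehydrogenase, read 8.47, 9.27, 8.04 and 7.30 log2 and was 2.25-fold and 3.92-fold higher in these populations. Sdha, the large subunit of succinate dehydrogenase, read 10.23, 10.46, 9.23 and 9.13 log2 and was 2.15-fold and 2.52-fold higher. As deposited, the differences of Foxp3-null from GFP- CD25- cells were 2.66-fold for Got2, 1.74-fold for Glud1 and 1.68-fold for Sdha. The Gapdh and Actb control probe sets above place the same 2 arrays apart from the GFP- arrays, and their part in these differences was not tested.

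Among 12 regulators, 10 were above the floor and 7 of these (70%) were at least 2-fold apart in some pair, beside 40.5% of all genes. Hif1a, the oxygen-regulated subunit of the hypoxia-inducible factor, read 9.47 log2 in Foxp3-null cells, 10.54 in Foxp3-fusion cells, 9.51 in GFP- CD25+ cells and 8.70 in GFP- CD25- cells. Myc, a driver of glycolytic gene expression in activated T cells, read 7.07, 8.70, 7.62 and 7.32 log2. Both were highest in Foxp3-fusion cells, which exceeded GFP- CD25- cells by 3.58-fold for Hif1a and 2.60-fold for Myc. Foxp3-null cells were 2.11-fold and 3.11-fold lower than Foxp3-fusion cells. Mlxip, a glucose-sensing transcription factor, read 5.30, 6.93, 6.92 and 7.05 log2 and was 3.37-fold lower in Foxp3-null than in GFP- CD25- cells. Esrra, a nuclear receptor of mitochondrial genes, was 2.90-fold lower in Foxp3-fusion than in GFP- CD25- cells, and its coactivator gene Ppargc1b 2.02-fold lower, or 1.73-fold as deposited. Tfam, the mitochondrial transcription factor, read 7.78, 7.92, 6.63 and 6.86 log2. Foxp3-fusion cells were 2.08-fold above GFP- CD25- cells and 2.43-fold above GFP- CD25+ cells. Foxp3-null cells were 1.89-fold and 2.22-fold above the same populations. The middle Gapdh control also set both GFP+ arrays above both GFP- arrays, and the part of this in the Tfam differences was not tested. Arnt, the partner of Hif1a, was 2.32-fold lower in Foxp3-null than in GFP- CD25+ cells.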

How the data were processed

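The authors hybridised 1 Affymetrix mouse array per sorted population, after 2 rounds of amplification per the labels' protocols. The deposited values are on a log2 scale, judged from their range, and their normalization by the authors was not stated. From these, all 45101 probe sets were quantile normalized over the 4 arrays with numpy 2.4.6 and pandas 2.3.3 in Python 3.11.15. Probe sets were named through the platform annotation: 34958 had 1 gene, 932 several and 9211 none, and 34754 of the single-gene ones matched RefSeq. To set the floor, the 90th percentile over 69 probe sets of 45 genes of other tissues was taken on each array, and the largest of the 4 was kept. It was 5.10 log2, or 5.02 as deposited. Afp, one of these genes, reached 9.32 and raised it. Without Afp it was 4.45 log2. Readings between these levels, such as some of Hk2, Idh1, Pfkl, Pfkfb3, Gpd2, Idh2 and Dld, were called under the floor here.

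With 1 array per group no test was run. Differences of 2-fold or more were counted, a difference with one array under the floor was a lower bound, and none was taken with both under it. The counting procedure was tested only on simulated data, with changes placed in bright genes and no loss of 5' signal. That test cannot show how reliable the 2-fold counts are on these arrays. The number of arrays limits the precision.

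Members and lists were chosen with earlier results of these data known. Values on all arrays were given for members at least 2-fold apart in any pair and for key enzymes. Among other pathway genes, at most 10 were named, by largest difference. Sdha, Slc2a1, Tfam, Arnt, Taldo1, Adpgk and Gpd1, and members outside the rule, were named after their values were seen. Alternatives were the deposited values, array centring, other floors, other probe set choices and thresholds of 1.5-fold and 3-fold.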

Additional observations from a re-analysis of the deposited data

Results flagged for a closer look

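On the normalized scale, Gpd2 and Suclg2 differed in opposite directions in the GFP+ populations relative to GFP- CD25- cells, each past 2-fold. Gpd2 was higher in Foxp3-null cells and lower in Foxp3-fusion cells, and the difference of Foxp3-null from Foxp3-fusion cells was at least 2.63 log2. Suclg2 was lower in Foxp3-null cells and higher in Foxp3-fusion cells, and the same difference was -2.72 log2. With 1 array per population these differences were not tested.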

How the results depend on the processing

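Leaving out a replicate was not possible with 1 array per group. No paired analysis was possible because the groups have 1 array each. The counts below are members at least 2-fold higher or lower, unless another threshold is named, and the cause of each shift was not tested. Except for the deposited scale, the share of all genes under each setting is not given here. These counts therefore show how far the members' counts move with the setting, and not whether the members differ from other genes.

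On the deposited scale, Foxp3-null over GFP- CD25- cells had 1 higher, Foxp3-fusion over GFP- CD25- cells 1 lower, and GFP- CD25+ over GFP- CD25- cells 1 higher and 3 lower. Foxp3-null over Foxp3-fusion cells had 1 higher and 7 lower with a median of -0.46, and Foxp3-fusion over GFP- CD25+ cells 11 higher.

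At 1.5-fold, where more genes can pass by construction, Foxp3-null over GFP- CD25- cells had 9 higher, Foxp3-fusion over GFP- CD25- cells 5 lower, and GFP- CD25+ over GFP- CD25- cells 6 higher and 5 lower. Foxp3-null over Foxp3-fusion cells had 6 higher, Foxp3-null over GFP- CD25+ cells 12 higher, and Foxp3-fusion over GFP- CD25+ cells 10 higher and 6 lower. At 3-fold the first comparison had 1 higher and 1 lower, Foxp3-fusion over GFP- CD25- cells 2 higher and 1 lower, and GFP- CD25+ over GFP- CD25- cells 1 higher and 0 lower. Foxp3-null over Foxp3-fusion cells had 1 higher and 2 lower, Foxp3-null over GFP- CD25+ cells 1 lower and Foxp3-fusion over GFP- CD25+ cells 1 higher.

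With the median over a gene's probe sets, which left 21 members measured in each comparison against 32 or 34, Foxp3-null over GFP- CD25- cells had 1 lower, Foxp3-fusion over GFP- CD25- cells 0 lower, GFP- CD25+ over GFP- CD25- cells 2 lower, and Foxp3-null over Foxp3-fusion cells 1 higher and 2 lower. Foxp3-null over GFP- CD25+ cells had 5 higher and 0 lower, and Foxp3-fusion over GFP- CD25+ cells 7 higher and 0 lower. Without probe sets that can match several transcripts, which left 19 or 20 members measured, Foxp3-null over GFP- CD25- cells and Foxp3-fusion over GFP- CD25- cells had 1 lower each, and GFP- CD25+ over GFP- CD25- cells 1 higher and 2 lower. Foxp3-null over GFP- CD25+ cells had 1 lower with a median of 0.73, and Foxp3-fusion over GFP- CD25+ cells 7 higher and 0 lower. Pdk1 in Foxp3-null over GFP- CD25+ cells turned to 0.38 log2 there.

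With no floor, GFP- CD25+ over GFP- CD25- cells had 3 lower, Foxp3-null over GFP- CD25+ cells 4 higher, and Foxp3-fusion over GFP- CD25+ cells 7 higher and 2 lower. With the floor at the array median, these were 3 lower, 4 higher and 2 lower. A floor 1 log2 unit higher left 2 lower in Foxp3-null over Foxp3-fusion cells. A floor without Afp, chosen after seeing the data, gave 2 lower in Foxp3-fusion over GFP- CD25+ cells. Centring the arrays moved no count and no member's difference by more than 1.5-fold. It gave 3 higher in Foxp3-null over GFP- CD25+ cells and 5 higher in Foxp3-fusion over GFP- CD25+ cells. Leaving out Gapdh, also chosen after seeing the data, moved no count by more than 1.5-fold.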

Other observations

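The pentose phosphate pathway, which branches from glycolysis to make NADPH and ribose, had 6 measured genes, of which 5 were above the floor on some array and 2 of these (40%) were at least 2-fold apart in some pair, beside 40.5% of all genes. Pgd, the phosphogluconate dehydrogenase, read 10.05 log2 in Foxp3-null cells, 9.41 in Foxp3-fusion cells, 11.11 in GFP- CD25+ cells and 10.79 in GFP- CD25- cells. Both GFP+ populations were below both GFP- populations, and Foxp3-fusion cells were 3.25-fold lower than GFP- CD25+ cells, or 2.42-fold as deposited. Taldo1, the transaldolase, went the other way, at 7.78, 8.03, 6.65 and 7.12 log2, and Foxp3-fusion cells exceeded GFP- CD25+ cells by 2.62-fold. Among 17 other glycolysis genes, Adpgk, a glucokinase that uses ADP, was 2.43-fold lower in Foxp3-fusion than in GFP- CD25- cells.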
